A study of Mus musculus with 6 samples.

Results

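The 9 genes described here are Mpo, Elane, Prtn3, Ctsg, Serpinb1a, Srgn, Nkg7, Ms4a3 and Plac8, taken by symbol from a count table of 15845 mouse genes. Primary (azurophil) granules are the first storage granules that precursors of neutrophils and monocytes make. They hold myeloperoxidase and the serine proteases neutrophil elastase, proteinase 3 and cathepsin G, packed on the sulphated chains of the proteoglycan serglycin, and their transcripts begin in early myeloid progenitors before granules are visible. The C/EBP factors, PU.1 (encoded by Spi1), Gfi1, Runx1 and Myb are known to act on these genes. Of the 9 genes, Mpo, Elane, Prtn3 and Ctsg encode granule enzymes, Srgn encodes serglycin and Serpinb1a a cytosolic inhibitor of the granule proteases. Ms4a3, Nkg7 and Plac8 encode other proteins made in myeloid progenitors.

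RNA was sequenced from LSK cells (negative for lineage markers, positive for Sca1 and c-kit) of bone marrow, a fraction that holds the blood stem cells and the multipotent progenitors. All mice were on the C57BL/6 background with the genotype Mx1Cre; Jak2VF/VF, so the controls carried the activating Jak2 allele in homozygous form as well. Mx1Cre is a recombinase under an interferon-responsive promoter and is not limited to stem cells. One group received TP-3654, a PIM kinase inhibitor, at 150 mg/kg/day for 6 weeks, and the other group received the vehicle PBS for the same time. Each group had 3 libraries, called biological replicates in the design text, and the comparison asks how the inhibitor alters expression in these cells. There was no group with wild-type Jak2.

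Library totals ran from 20582057 to 25315596 counts, and 3 counts corresponded to 0.116 to 0.153 CPM. CPM expresses counts relative to the library total, scaled with TMM factors of 0.952 to 1.04. The median log2 fold change over the 13149 tested genes was 0.01. The sort marker Kit stood at 436, 492 and 581 CPM in the TP-3654 libraries and at 365, 377 and 375 CPM in the vehicle libraries. Ly6a, which encodes Sca1, stood at 60.5, 60.5 and 68.3 CPM with TP-3654 and at 40.0, 46.7 and 69.2 CPM with vehicle. Both markers were thus present in every library, and Kit was higher in each TP-3654 library.

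Some libraries stood apart in ways that touch the granule genes. TP-3654 replicate 2 lay nearest to the vehicle libraries and TP-3654 replicate 3 farthest from them. The summed level of the 9 genes was 5542, 9561 and 3828 CPM in TP-3654 replicates 1 to 3. In vehicle replicates 1 to 3 it was 15538, 14232 and 12745 CPM. Vehicle replicate 1 had the highest counts of some genes of mature neutrophils. S100a8, a calcium-binding protein abundant in mature neutrophils, had 10, 238 and 22 counts in the TP-3654 libraries and 990, 10 and 10 counts in the vehicle libraries. The number of the 9 genes called and the log2 fold changes of the 9 are therefore also given without each of these libraries.

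All 9 granule genes had a lower mean level with TP-3654, and the differences were graded. The 5 genes with the lowest fold changes, Elane, Mpo, Ms4a3, Ctsg and Prtn3, stood 2.21-fold to 3.31-fold lower, Plac8, Nkg7 and Srgn 1.29-fold to 1.65-fold lower, and Serpinb1a 1.14-fold lower. Together they made up 0.554%, 0.956% and 0.383% of the TMM-scaled counts with TP-3654 and 1.55%, 1.42% and 1.27% with vehicle, so every TP-3654 library lay below every vehicle library. In bulk RNA, fewer cells that express these genes and less RNA per cell cannot be told apart.

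At the false discovery rate of 0.05, edgeR's quasi-likelihood test called 0 of the 9 genes, as it called 0 of 13149 genes (0.0%). At an unadjusted p under 0.05, 6 of the 9 genes were lower, against 6.84% of all tested genes that were lower at that level. For 7 of the 9 genes each TP-3654 library lay below each vehicle library, against 11.6% of all tested genes. DESeq2 called 3 of the 9 genes lower (Ctsg, Nkg7 and Plac8), against 1.93% of its genes (4.9% in either direction). limma-voom without sample weights called 0 of the 9 genes, as it called 0 of all tested genes. With sample weights it called 0 of the 9, against 1.12% of all tested genes. The authors' deposited table called 4 lower (Plac8, Ctsg, Mpo and Prtn3), against 2.48% of its genes (5.32% in either direction). The exact two-sided permutation test gave p = 0.1 for each of the 7 genes without overlap, which is the smallest value that 3 against 3 libraries allow. The median log2 fold change of the 9 genes was -1.14. Without TP-3654 replicate 2 edgeR called 3 of the 9 genes lower (Mpo, Ctsg and Ms4a3), against 0.0974% of its genes, and the median was -1.66. That library was the highest TP-3654 library for all 9 genes, so leaving it out had to lower their fold changes. These 3 calls are therefore a description and not separate support. Without vehicle replicate 1 edgeR called 0 of the 9 and 0 of all tested genes. At an unadjusted p under 0.05 there were 3 of the 9 and 1853 of all tested genes, and the median of the 9 was -1.02. Without TP-3654 replicate 1 it called 0 of the 9 and 7 of all tested genes. At the unadjusted level there were 3 of the 9 and 2138 of all tested genes, with a median of -1.07 for the 9. Without TP-3654 replicate 3, the lowest library for 8 of the 9 genes, it called 0 of the 9 and 31 of all tested genes. At the unadjusted level there were 5 of the 9 and 1679 of all tested genes, with a median of -0.83 for the 9. The log2 fold changes were then smaller, at -1.08 for Mpo, -1.25 for Elane, -0.83 for Prtn3 and -1.05 for Ctsg and Ms4a3. Those of Plac8, Nkg7, Srgn and Serpinb1a were -0.64, -0.45, -0.28 and -0.17.

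**Figure D1:**
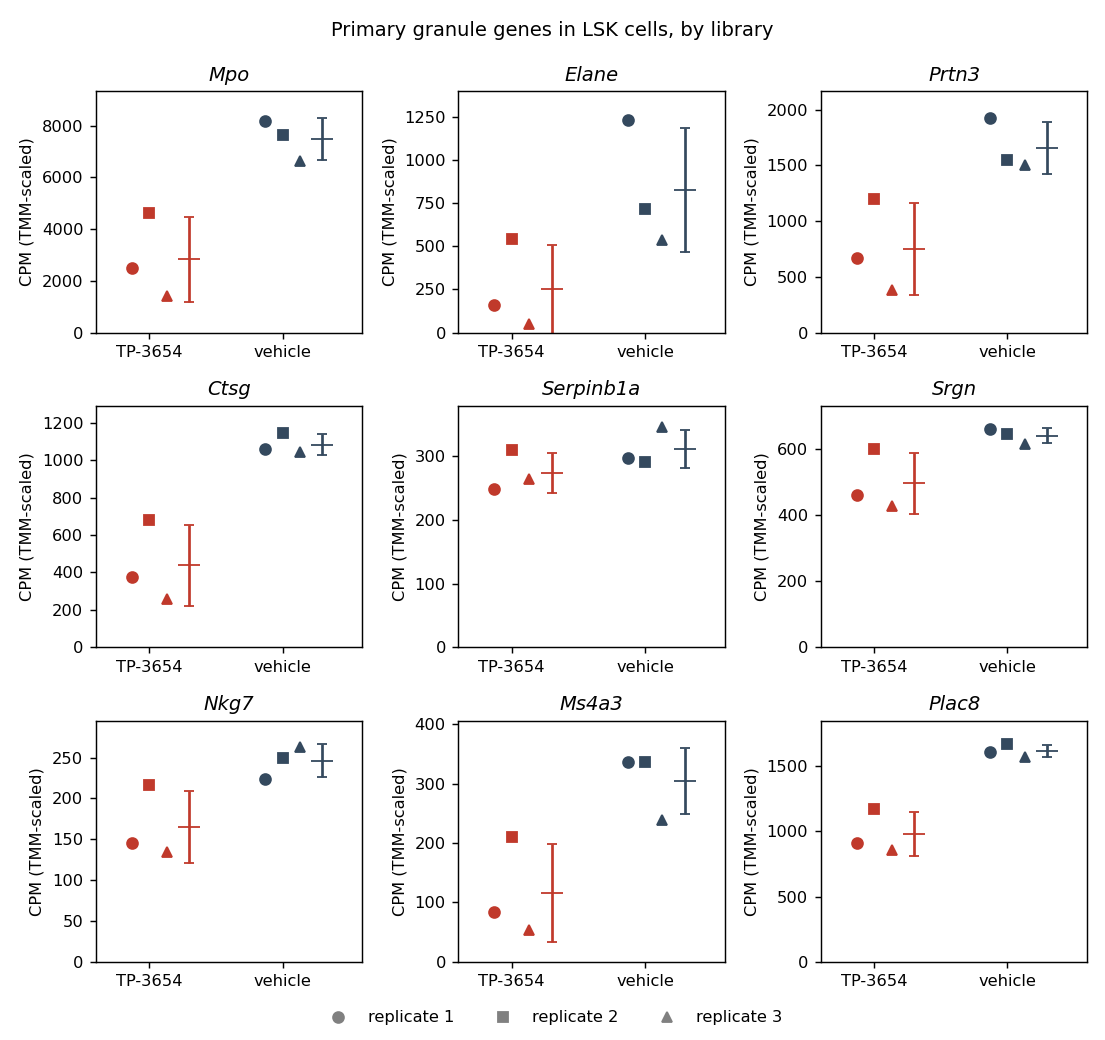
Level of each gene (CPM, TMM-scaled, linear axes from 0) in the 3 TP-3654 libraries (red) and the 3 vehicle libraries (blue), with the replicate number as the symbol and the mean ± SD beside the points. For 7 genes all TP-3654 points lie below all vehicle points, TP-3654 replicate 2 is the highest TP-3654 point in 9 of 9 panels, and the SD bar of Elane with TP-3654 (251 ± 260 CPM) is drawn only down to 0.

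Mpo encodes myeloperoxidase, the heme enzyme that makes hypochlorous acid and the most abundant protein of the primary granule. The gene lies at chr11:87793784-87804412 (GRCm38.p6). It stood at 2485, 4629 and 1403 CPM in the TP-3654 libraries and at 8195, 7634 and 6623 CPM in the vehicle libraries. The highest TP-3654 library was thus below the lowest vehicle library. The means were 2839 ± 1642 CPM with TP-3654 and 7484 ± 797 CPM with vehicle (SD, n = 3 each), which is 2.64-fold lower with TP-3654 (log2 fold change -1.40, SE 0.42, edgeR adjusted p = 0.199). Without TP-3654 replicate 2 the log2 fold change was -1.95, with an edgeR adjusted p of 0.044, and without vehicle replicate 1 it was -1.33. Per length, Mpo had 829 ± 480 RPKM (CPM per kilobase of annotated exon) with TP-3654 and 2186 ± 233 RPKM with vehicle, rank 20 with TP-3654 and rank 3 with vehicle among 12572 genes. Of the 31-base stretches of Mpo transcripts, 12.1% also occur in other loci, the predicted gene Gm11505 among them.

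The sequence around the start of Mpo is shown because some of the factors described further on are known to act on this gene. RefSeq's table for GRCm38.p6 gives 250 bases before and 50 bases after each start. Capitals in the promoters printed here mark every match, on either strand, to 5 short motifs. For the C/EBP factors the letters TTNNGNAA were searched, and for PU.1 the letters AGGAAG. The RUNX factors were represented by TGNGGT, the factor Myb by TAACNG, and the TATA box by TATAAA. The Mpo window, chr11:87793534-87793833 on the plus strand, holds 3 matches to AGGAAG and 1 to TAACNG.
Mpo promoter: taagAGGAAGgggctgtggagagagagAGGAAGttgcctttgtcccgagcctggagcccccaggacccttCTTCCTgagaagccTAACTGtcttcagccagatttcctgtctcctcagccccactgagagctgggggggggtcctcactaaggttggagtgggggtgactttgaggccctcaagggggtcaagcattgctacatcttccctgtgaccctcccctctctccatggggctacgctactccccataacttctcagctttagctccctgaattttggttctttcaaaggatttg

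Elane, Prtn3 and Ctsg encode neutrophil elastase, proteinase 3 and cathepsin G, the serine proteases that the primary granule stores in active form. Elane stood at 158, 545 and 50.3 CPM with TP-3654 and at 1235, 716 and 540 CPM with vehicle. TP-3654 replicate 2 was above vehicle replicate 3, so the groups overlapped, and the 3 TP-3654 libraries spanned 10.8-fold, against 2.29-fold among vehicle libraries. The means were 251 ± 260 CPM with TP-3654 and 830 ± 361 CPM with vehicle (SD, n = 3 each), the lowest fold change of the 9 genes and the one with the largest error (log2 fold change -1.73, SE 0.97, edgeR adjusted p = 0.425). The exact permutation p was 0.2. Without TP-3654 replicate 2 the log2 fold change of Elane was -2.99, and without vehicle replicate 1 it was -1.32 (edgeR adjusted p = 0.21 and 0.608).

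Prtn3 lies 3137 bases from Elane on chromosome 10, at chr10:79879667-79883174, with Elane at chr10:79886312-79888216. Prtn3 stood at 672, 1200 and 380 CPM in the TP-3654 libraries and at 1924, 1544 and 1504 CPM in the vehicle libraries, with no overlap. The means were 751 ± 415 CPM with TP-3654 and 1657 ± 232 CPM with vehicle (SD, n = 3 each; log2 fold change -1.14, SE 0.41, edgeR adjusted p = 0.259). Of its transcript stretches, 7.48% are shared with the neighbouring gene Plppr3, which itself had a log2 fold change of -0.15. Leaving out TP-3654 replicate 2, the log2 fold change of Prtn3 was -1.66 (edgeR adjusted p = 0.0569), and without vehicle replicate 1 it was -1.02 (edgeR adjusted p = 0.426). Although both proteases lie side by side, the count ratio of Elane to Prtn3 was 0.235, 0.454 and 0.132 with TP-3654 and 0.642, 0.464 and 0.359 with vehicle, with groups that overlapped (exact permutation p = 0.2).

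Ctsg, on chromosome 14 at chr14:56099885-56102574, had the most even vehicle values among the proteases. It stood at 376, 678 and 260 CPM with TP-3654 and at 1060, 1148 and 1043 CPM with vehicle, with no overlap. The means were 438 ± 216 CPM with TP-3654 and 1084 ± 56.4 CPM with vehicle (SD, n = 3 each; log2 fold change -1.31, SE 0.33, edgeR adjusted p = 0.154). DESeq2 called it lower (adjusted p = 0.000197), and so did the authors' deposited table (log2 fold change -1.27, adjusted p = 0.0156). Without TP-3654 replicate 2 edgeR called it as well (log2 fold change -1.77, adjusted p = 0.044), and without vehicle replicate 1 it did not (log2 fold change -1.32, edgeR adjusted p = 0.301).

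The 3 protease promoters are shown side by side with that of Mpo because all carry the PU.1 letters. The Elane window is chr10:79886062-79886361 on the plus strand, the Prtn3 window chr10:79879417-79879716 on the plus strand, and the Ctsg window chr14:56102525-56102824 on the minus strand. AGGAAG occurs 1 time in the Elane window, 2 times in that of Prtn3 and 3 times in that of Ctsg. None of the 3 holds a match to TTNNGNAA.
Elane promoter: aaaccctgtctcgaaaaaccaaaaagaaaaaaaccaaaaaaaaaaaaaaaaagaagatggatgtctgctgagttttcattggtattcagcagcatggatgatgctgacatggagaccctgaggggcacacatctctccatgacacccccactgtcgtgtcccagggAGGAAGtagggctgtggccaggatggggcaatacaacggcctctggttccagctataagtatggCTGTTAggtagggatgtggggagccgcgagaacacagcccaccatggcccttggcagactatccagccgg
Prtn3 promoter: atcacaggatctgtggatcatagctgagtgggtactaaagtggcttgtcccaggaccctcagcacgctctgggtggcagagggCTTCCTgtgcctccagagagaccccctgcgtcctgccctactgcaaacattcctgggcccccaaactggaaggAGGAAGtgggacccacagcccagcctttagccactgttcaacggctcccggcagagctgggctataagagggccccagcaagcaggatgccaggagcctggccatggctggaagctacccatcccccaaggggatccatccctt
Ctsg promoter: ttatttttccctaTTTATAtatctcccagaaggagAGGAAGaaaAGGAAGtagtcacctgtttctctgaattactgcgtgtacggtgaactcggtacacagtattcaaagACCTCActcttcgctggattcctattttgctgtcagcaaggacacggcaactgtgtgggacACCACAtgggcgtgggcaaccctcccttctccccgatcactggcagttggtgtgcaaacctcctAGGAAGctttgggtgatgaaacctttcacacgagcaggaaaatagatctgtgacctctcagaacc

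Serpinb1a encodes the leukocyte inhibitor of elastase, proteinase 3 and cathepsin G and acts in the cytosol, outside the granule. It stood at 248, 310 and 264 CPM with TP-3654 and at 298, 291 and 346 CPM with vehicle. The groups overlapped, and it was the gene among the 9 with the smallest difference, 274 ± 31.9 CPM with TP-3654 against 312 ± 30.0 CPM with vehicle (SD, n = 3 each). Its log2 fold change was -0.19 (SE 0.13, edgeR adjusted p = 0.461), and 24.3% of all tested genes had a fold change as low or lower. It was -0.29 with TP-3654 replicate 2 left out and -0.22 with vehicle replicate 1 left out. Of its transcript stretches, 10.2% are shared with other loci, among them its paralogs Serpinb1b and Serpinb1c.

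Srgn encodes serglycin, whose chondroitin sulphate chains hold the proteases in the granule and without which elastase is not stored in mouse neutrophils. It stood at 459, 600 and 428 CPM with TP-3654 and at 660, 644 and 615 CPM with vehicle. The groups did not overlap, but TP-3654 replicate 2 was only just below vehicle replicate 3. Srgn was 1.29-fold lower with TP-3654 (log2 fold change -0.37, SE 0.15, edgeR adjusted p = 0.254). The log2 fold change was -0.53 when TP-3654 replicate 2 was left out and -0.35 when vehicle replicate 1 was left out.

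Ms4a3 encodes a membrane-spanning protein of granulocyte-monocyte progenitors and lies at chr19:11629499-11640851. It stood at 84.5, 210 and 53.0 CPM with TP-3654 and at 336, 336 and 239 CPM with vehicle. Each TP-3654 library was below each vehicle library, with a 3.96-fold span among the TP-3654 libraries. The means were 116 ± 82.9 CPM with TP-3654 and 304 ± 55.8 CPM with vehicle (SD, n = 3 each; log2 fold change -1.39, SE 0.56, edgeR adjusted p = 0.304). Without TP-3654 replicate 2 the log2 fold change was -2.14 (edgeR adjusted p = 0.044), and without vehicle replicate 1 it was -1.31. Its promoter is shown since, of the 5 genes with the lowest fold changes, it was the one with matches to the C/EBP letters. The window, chr19:11640802-11641101 on the minus strand, holds 2 matches to TTNNGNAA and 1 to AGGAAG.
Ms4a3 promoter: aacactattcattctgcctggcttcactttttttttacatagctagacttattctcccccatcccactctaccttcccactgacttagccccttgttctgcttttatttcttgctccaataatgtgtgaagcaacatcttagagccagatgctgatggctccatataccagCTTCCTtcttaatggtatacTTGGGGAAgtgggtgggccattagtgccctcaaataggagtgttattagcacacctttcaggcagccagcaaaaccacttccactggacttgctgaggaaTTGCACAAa

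Nkg7 encodes a granule membrane protein best known from natural killer and cytotoxic T cells. It stood at 146, 216 and 134 CPM with TP-3654 and at 224, 250 and 263 CPM with vehicle, with no overlap (log2 fold change -0.57, SE 0.18, edgeR adjusted p = 0.179, DESeq2 adjusted p = 0.0435). The log2 fold change of Nkg7 was -0.82 with TP-3654 replicate 2 left out and -0.64 with vehicle replicate 1 left out. Transcripts of cytotoxic cells differed in level beside it. Gzma, a granzyme of those cells, had 2, 1 and 0 counts with TP-3654 and 2, 0 and 0 counts with vehicle, and Cd3e, a chain of the T cell receptor complex, had 0, 1 and 0 counts with TP-3654 and 0 in each vehicle library. The receptor gene Klrb1c had 53, 77 and 70 counts with TP-3654 and 54, 47 and 50 counts with vehicle, and the granzyme gene Gzmb had 124, 257 and 123 counts with TP-3654 and 150, 320 and 175 counts with vehicle. A sum of 14 natural killer and T cell genes did not include Gzmb. It was 11.1 to 14.3 CPM with TP-3654 and 8.28 to 10.5 CPM with vehicle, the opposite direction to that of Nkg7. Gzmb itself stood at 5.74, 9.95 and 6.29 CPM with TP-3654 and at 5.91, 14.4 and 8.02 CPM with vehicle. Its log2 fold change of -0.36 had the direction of Nkg7, with groups that overlapped. The part of all these genes in the level of Nkg7 was not tested.

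Plac8 encodes a small cysteine-rich protein made in myeloid and early lymphoid progenitors. It stood at 913, 1174 and 856 CPM with TP-3654 and at 1607, 1669 and 1571 CPM with vehicle. The vehicle libraries lay within 1.06-fold of each other, and all lay above every TP-3654 library. Plac8 had the smallest p of the 9 genes, although it was only 1.65-fold lower with TP-3654 (log2 fold change -0.72, SE 0.15, edgeR adjusted p = 0.0818). DESeq2 (adjusted p = 0.00011) and the authors' deposited table (log2 fold change -0.78, adjusted p = 4.93e-05) called it lower. With 1 library left out, its log2 fold change lay between -0.87 and -0.64, with -0.87 for the fit lacking TP-3654 replicate 2 and -0.72 for the fit lacking vehicle replicate 1.

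**Figure D2:**
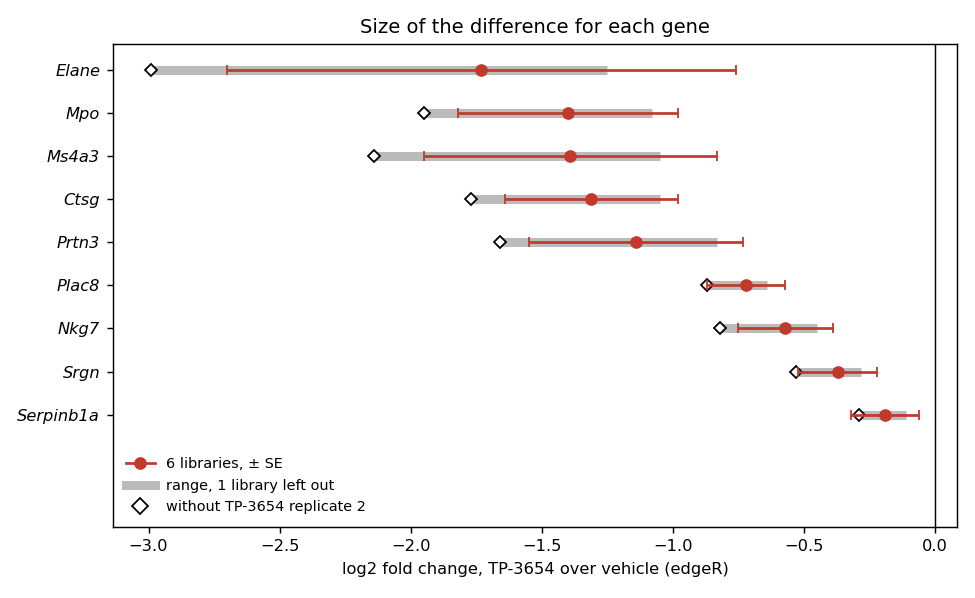
Log2 fold change of each gene, TP-3654 over vehicle, from edgeR on 6 libraries with its SE (red), the range over the fits with 1 library left out (grey) and the fit without TP-3654 replicate 2 (diamonds). The values run from -1.73 for Elane to -0.19 for Serpinb1a, and for all 9 genes the diamond marks the low end of the range.

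The order of the TP-3654 libraries, from replicate 2 through 1 to 3, was shared by 8 of the 9 genes, while the order of the vehicle libraries varied. TP-3654 replicate 3 was the lowest library for 8 of the 9 genes and TP-3654 replicate 1 the second lowest for 8. TP-3654 replicate 2 was the highest TP-3654 library for all 9. The mean deviation of the 9 genes from their own mean log2 CPM was -0.65, 0.16 and -1.18 in TP-3654 replicates 1 to 3, against 0.67, 0.56 and 0.44 in vehicle replicates 1 to 3. The order from replicate 2 through 1 to 3 also occurred where the groups hardly differed, as for Runx1 (130, 179 and 126 CPM, log2 fold change -0.06). Myb (547, 650 and 704 CPM) did not have it. The ratio of the highest to the lowest library was larger among TP-3654 than among vehicle libraries for all 9 genes. The shares of all tested genes with that order or with such a wider ratio were not counted. For Mpo the coefficient of variation was 57.8% with TP-3654 and 10.6% with vehicle, and for Ctsg it was 49.3% with TP-3654 and 5.2% with vehicle.

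**Figure D3:**
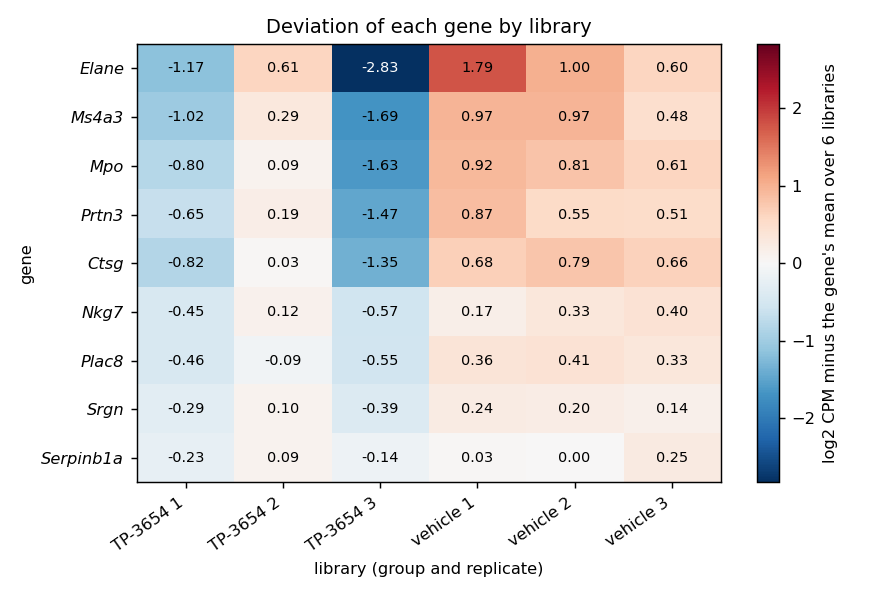
Log2 CPM of each gene minus its mean over the 6 libraries (colour and printed value), with genes in rows and TP-3654 libraries left of vehicle libraries. Values run from -2.83 for Elane in TP-3654 replicate 3 to 1.79 for Elane in vehicle replicate 1, and the order of the TP-3654 libraries is 2, 1, 3 from high to low for 8 of the 9 genes.

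The ratio of 2 genes within a library does not depend on scaling and shows whether the genes differed by unequal amounts. Of the 8 ratios to Mpo, those to Ctsg and Ms4a3 differed least. The log2 ratio of Mpo to Ctsg was 2.64 ± 0.18 with TP-3654 and 2.78 ± 0.15 with vehicle, and that of Mpo to Ms4a3 was 4.69 ± 0.21 with TP-3654 and 4.64 ± 0.14 with vehicle (SD, n = 3 each). Both overlapped between groups, with a difference of -0.14 for Ctsg (exact permutation p = 0.5) and of 0.05 for Ms4a3 (exact permutation p = 0.8). Relative to Prtn3, Mpo was lower in each TP-3654 library, with a difference of -0.27 on the log2 scale.

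The inhibitor, serglycin, Nkg7 and Plac8 differed less than Mpo. The log2 ratio of Mpo to Serpinb1a was 3.21 ± 0.75 with TP-3654 and 4.58 ± 0.28 with vehicle, a difference of -1.37. The differences for Srgn (-1.18), Nkg7 (-0.96) and Plac8 (-0.83) had the same direction, and none of these 4 ratios overlapped between groups. In all, 5 of the 8 ratios to Mpo did not overlap (exact permutation p = 0.1 each, the smallest possible, and 0.16 after Benjamini-Hochberg adjustment over the 8). For Elane the difference was 0.70, with groups that overlapped (exact permutation p = 0.3).

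The 8 genes outside the list whose pattern over the 6 libraries was most like the mean pattern of the 9 were found by the root mean square difference of centred log2 CPM among 6899 genes of a mean log2 CPM of at least 5. They were Sdf2l1 (0.145), Prss57 (0.146), Dok3 (0.191), Arid3a (0.208), Chdh (0.209), Tspoap1 (0.210), Cebpa (0.215) and Ifngr1 (0.216). Sdf2l1, which encodes a chaperone cofactor of the endoplasmic reticulum, stood at 74.8, 111 and 45.7 CPM with TP-3654 and at 182, 138 and 121 CPM with vehicle. Prss57, which encodes a further serine protease of the primary granule, stood at 41.7, 68.0 and 32.0 CPM with TP-3654 and at 84.5, 88.1 and 78.6 CPM with vehicle. In both, TP-3654 replicate 2 was again the highest TP-3654 library and no TP-3654 library reached the vehicle range. The likeness was the rule that chose these genes, so it is given as a description.

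Some of these genes are neighbours of the granule genes. Prss57 (chr10:79781474-79794684) and Arid3a (chr10:79927043-79955018) lie within 100 kb of Elane, and Tspoap1 (chr11:87758194-87785928) lies within 100 kb of Mpo. Of 12 tested genes within 100 kb of Elane, Prtn3 left out, 3 were lower at an unadjusted p under 0.05 and 0 higher, with a median log2 fold change of -0.17. Near Mpo 2 of 8 were lower and 0 higher, with a median of -0.83. Over all tested genes 6.84% were lower at that level. Prss57, Arid3a and Tspoap1, chosen above for their pattern, are among these lower neighbours. With so few neighbours, whether position had a part in their levels was not tested. The peroxidase genes Lpo and Epx are paralogs of Mpo that lie within 100 kb of it. Lpo stood at 0.555, 0.852 and 0.102 CPM with TP-3654 and at 3.35, 2.30 and 1.01 CPM with vehicle. These levels are low, with 12, 22 and 2 counts with TP-3654, the last below the 3 counts taken as the limit of detection. Lpo was lower in each TP-3654 library (log2 fold change -2.10, edgeR adjusted p = 0.184), though not at an unadjusted p under 0.05 without vehicle replicate 1. Epx, the peroxidase of eosinophils, overlapped between groups (log2 fold change -1.21, SE 0.86). Near Ctsg, 0 of 3 tested genes were past that level, and Mcpt8, a basophil protease, had a log2 fold change of -0.54 (SE 0.66).

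Cfd, the gene for complement factor D that follows Elane at a gap of 2636 bases, was too low to test, with 1, 5 and 2 counts with TP-3654 and 16, 8 and 1 counts with vehicle. Cma1, a mast cell chymase of the cluster that holds Ctsg, stood at 1.06, 3.37 and 4.19 CPM with TP-3654 and at 5.44, 15.7 and 20 CPM with vehicle (log2 fold change -2.25, edgeR adjusted p = 0.186). Its order among the TP-3654 libraries was not that of Ctsg, since TP-3654 replicate 1 was the lowest. Of the 16 listed proteases of these clusters 5 could be tested, and 2 of them, Prss57 and Cma1, were lower at an unadjusted p under 0.05, against 1 without TP-3654 replicate 1.

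The steps that make a granule were then set beside the granule genes, by counts of listed genes at an unadjusted p under 0.05. In each of these lists edgeR called 0 genes at the false discovery rate of 0.05. Over all tested genes 6.84% were lower and 10.2% higher at the unadjusted level. Of 10 tested genes for other primary granule proteins, 2 were lower (Prss57 and the lectin receptor gene Clec5a, log2 fold change -1.54) and 1 was higher, with a median of -0.40. The one that was higher was Cd63, a membrane protein of granules and lysosomes in many cells, with 56.0, 66.8 and 105 CPM with TP-3654 and 44.6, 42.4 and 50.3 CPM with vehicle. Cd63 thus ran the other way from the 9 genes, and TP-3654 replicate 3 was its highest library. The number lower in this list was 0 with TP-3654 replicate 1 left out, and 4 with replicate 2 of either group left out.

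Of 18 genes that sort, fold or activate granule proteins, 3 were lower and 0 higher, with a median of -0.07. With TP-3654 replicate 1 left out 2 were lower and 2 higher, and with TP-3654 replicate 2 left out 4 were lower and 1 higher. Calr encodes calreticulin, the chaperone that binds the precursor of myeloperoxidase. It stood at 1594, 1929 and 1419 CPM with TP-3654 and at 2349, 2649 and 2520 CPM with vehicle (log2 fold change -0.61, SE 0.15, edgeR adjusted p = 0.107). Ap3s1, a subunit of the AP-3 sorting adaptor, had a log2 fold change of -1.04, while the AP-3 subunit Ap3b1 had one of 0.05. Ctsc, which encodes the peptidase that activates the granule proteases, stood at 83.7, 93.9 and 66.7 CPM with TP-3654 and at 112, 94.9 and 80.9 CPM with vehicle, with overlap (log2 fold change -0.24, SE 0.16).

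Of 8 enzymes of heme synthesis, 1 was lower and 0 higher, with a median of -0.13. The one was Alas1, which encodes the first enzyme of the pathway outside red cells, with 103, 158 and 92.6 CPM with TP-3654 and 312, 169 and 181 CPM with vehicle (log2 fold change -0.91, SE 0.31, edgeR adjusted p = 0.230). Of 15 enzymes that build glycosaminoglycan chains such as those on serglycin, 3 were lower and 2 higher, with a median of -0.18. Chsy1 (-0.38) and Chst12 (-0.45) were lower and Csgalnact1 (0.79) and Ndst1 (0.50) higher on the log2 scale. Of 11 tested genes in a list of protease inhibitors, 3 were lower and 0 higher, with a median of 0.11 and 4 log2 fold changes below 0. They were Slpi, the secretory inhibitor of elastase (log2 fold change -1.14), and the cystatins Cst3 (-0.62) and Cstb (-0.38). Cystatins inhibit cysteine proteases and not the serine proteases of the granule. The number of chain-building enzymes that were lower was 0 with vehicle replicate 2 left out, 5 with TP-3654 replicate 2 left out, and 1 with replicate 1 of either group or vehicle replicate 3 left out. The heme enzyme was not lower at that level without TP-3654 replicate 3, and of the inhibitors 1 was lower without TP-3654 replicate 1 or 3.

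The transcription factors listed for the granule genes differed unequally. The list also holds Irf8 and Klf4, which are not among the factors named at the start. Of 12, 6 were lower and 0 higher at an unadjusted p under 0.05, with a median of -0.58 and 3 called lower by DESeq2. Cebpa, which drives the commitment to granulocytes and monocytes, stood at 78.0, 120 and 67.7 CPM with TP-3654 and at 155, 157 and 171 CPM with vehicle (log2 fold change -0.86, SE 0.20, edgeR adjusted p = 0.106). Cebpe, which acts at the promyelocyte to myelocyte step, stood at 2.96, 8.44 and 1.33 CPM with TP-3654 and at 22.9, 13.6 and 11.9 CPM with vehicle (log2 fold change -1.91, SE 0.68, edgeR adjusted p = 0.258). Both had no overlap between groups and the library order of Mpo among the TP-3654 libraries, an order that Runx1 also had.

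Spi1, the gene for PU.1, stood at 114, 150 and 103 CPM with TP-3654 and at 188, 154 and 172 CPM with vehicle (log2 fold change -0.49, SE 0.15, edgeR adjusted p = 0.180). TP-3654 replicate 2 was only just below vehicle replicate 2. Gfi1, a repressor needed for neutrophil formation, had a log2 fold change of -0.51 with groups that overlapped. Cebpb (-1.12) and Irf8 (-0.64), the second a factor of monocyte and dendritic cell fate, were lower in each TP-3654 library.

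Myb stood at 547, 650 and 704 CPM with TP-3654 and at 677, 631 and 646 CPM with vehicle (log2 fold change -0.04), and Runx1 at 130, 179 and 126 CPM with TP-3654 and at 174, 138 and 144 CPM with vehicle (-0.06). Both overlapped between groups, as did Cbfb (0.06), the partner of Runx1, and Cebpg (-0.07). Cebpd (-1.17, SE 0.51) and Klf4 (-0.86, SE 0.94) overlapped too. Leaving out 1 library at a time left between 4 and 7 of the 12 lower, with 4 without vehicle replicate 1 (median -0.39) or TP-3654 replicate 1 (median -0.52).

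**Figure D4:**
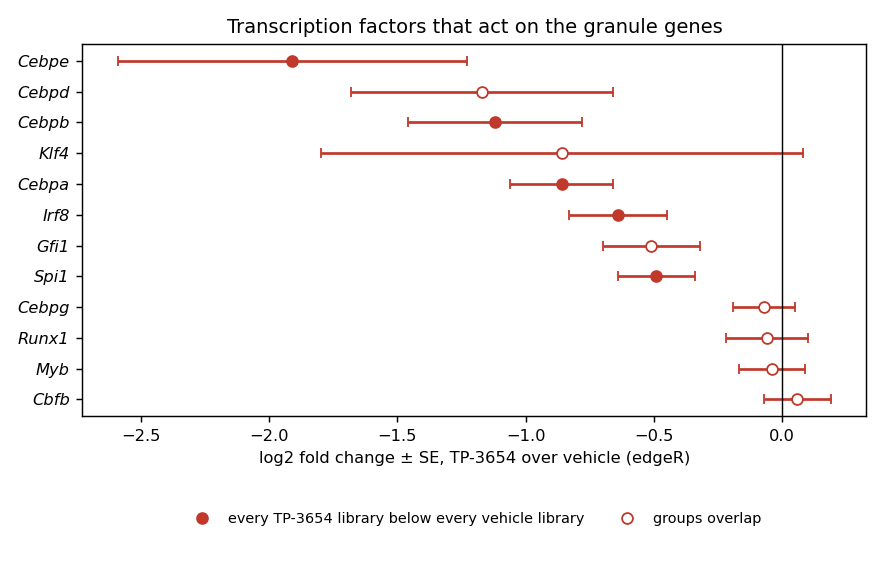
Log2 fold change ± SE, TP-3654 over vehicle, of the 12 transcription factors listed for the granule genes, Irf8 and Klf4 included. Filled points mark factors for which every TP-3654 library lay below every vehicle library. Cebpe (-1.91), Cebpb (-1.12), Cebpa (-0.86), Irf8 (-0.64) and Spi1 (-0.49) are filled, and Cebpg, Runx1, Myb and Cbfb lie between -0.07 and 0.06.

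RefSeq's promoter table had 10 windows for 8 of the 9 genes, all but Serpinb1a. The AGGAAG letters of PU.1 occurred in 6 of the 10 windows (6 of the 8 genes), against 35.4% of 32851 mouse promoters of the same length. The C/EBP letters occurred in 4 windows of 3 genes (Ms4a3, Srgn and Plac8), against 40.7% of promoters. The RUNX letters occurred in 5 windows of 4 genes, against 45.8%. The TATA letters occurred in 2 windows, against 13.6%, at -98 to -93 from the start in Srgn and at -237 to -232 in Ctsg. The MYB letters occurred in 2 windows, against 23.3%, at -166 to -161 from the start in Mpo and at -20 to -15 in Elane. A match of letters is not a measured binding site, and with 8 genes these shares carry wide error.

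Receptors of granulocyte-monocyte progenitors were lower in 5 of 11 and higher in 1. With TP-3654 replicate 1 left out 4 were lower and 2 higher, with TP-3654 replicate 2 left out 7 were lower, and with vehicle replicate 1 left out 4 were lower. The one that was higher with all 6 libraries was Flt3, the cytokine receptor of multipotent and lymphoid progenitors, with 205, 264 and 333 CPM with TP-3654 and 145, 132 and 191 CPM with vehicle. TP-3654 replicate 3, the lowest library for Mpo, was the highest for Flt3. Fcgr2b, an inhibitory receptor for antibody, had a log2 fold change of -0.96 (edgeR adjusted p = 0.0792). Among 6 tested genes of the family of Ms4a3, 2 were lower, Ms4a6b (-0.79) and Ms4a6c (-0.81). The median of these 6 was -0.80, and -0.26 without vehicle replicate 1, with 3 lower. Unlike Ms4a3, Ms4a6b did not set TP-3654 replicate 2 apart, at 20, 26.7 and 26.1 CPM, against 53.1, 38.6 and 33.7 CPM with vehicle.

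The median of genes for later granules changed sign with 1 library. Of 11 tested genes of specific and gelatinase granules, 3 were lower, with a median of -1.23. Without vehicle replicate 1 the median was 0.12, with 1 lower and 2 higher. The number lower was also 1 without TP-3654 replicate 1 or 3, and 5 without vehicle replicate 3. Pglyrp1, which encodes a bactericidal granule protein, was lower in each TP-3654 library (9.99, 14.4 and 9.30 CPM, against 29.7, 23.3 and 21.1 CPM with vehicle; log2 fold change -1.13, edgeR adjusted p = 0.0792). Ltf, the lactoferrin gene, had 4, 50 and 31 counts with TP-3654 and 217, 1 and 2 counts with vehicle, and Camp 3, 14 and 5 counts with TP-3654 and 108, 0 and 0 counts with vehicle. Ltf and Camp were thus near 0 in vehicle replicates 2 and 3, in which Mpo stood at 7634 and 6623 CPM. Ngp of the same list had 0 counts in both. Other genes of the list were not near 0 there. Hp and Cybb, which with Pglyrp1 were the 3 lower genes, had 3005 and 2382 counts and 827 and 283 counts in these libraries. Lcn2 had 372 and 224 counts. Genes of later granules thus differed among themselves in these libraries.

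Markers of other cells were measured beside the granule genes, and their part in the result was not tested. The summed level of 17 mature neutrophil genes overlapped, at 287 to 427 CPM with TP-3654 and 313 to 459 CPM with vehicle, with 1 of 13 tested genes lower. Csf3r, the receptor gene for granulocyte colony-stimulating factor, gave 184, 236 and 308 CPM of the sums with TP-3654 and 227, 161 and 199 CPM of those with vehicle. Of 15 tested monocyte, macrophage and dendritic cell genes 8 were lower, among them the chemokine receptor gene Cx3cr1 (-1.18), with sums of 323 to 470 CPM with TP-3654 and 483 to 1380 CPM with vehicle. Without vehicle replicate 1 these counts were 5 lower and 4 higher, and without TP-3654 replicate 1 or 3 they were 5 lower and 0 higher. Of the mature neutrophil genes, 4 were lower and 0 higher with TP-3654 replicate 2 left out, 0 lower and 2 higher with TP-3654 replicate 1 left out, and 0 lower and 1 higher with vehicle replicate 1 left out. With vehicle replicate 2 or TP-3654 replicate 3 left out, 0 were lower and 0 higher.

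Of 15 tested mast cell, basophil and eosinophil genes 3 were lower, and the sums were 320, 404 and 145 CPM with TP-3654 and 481, 529 and 455 CPM with vehicle. The sum, though not each gene of the list, had the same library order as Mpo among the TP-3654 libraries, with replicate 3 the lowest. The number lower was 5 without TP-3654 replicate 2 or 3, 4 without vehicle replicate 1, and 2 without vehicle replicate 2 or 3. Mast cell tryptase Tpsb2 had 12, 9 and 11 counts with TP-3654 and 15, 73 and 70 counts with vehicle, while the mast cell peptidase Cpa3 stood at 46.4 to 82.0 CPM with TP-3654 and 82.4 to 92.1 CPM with vehicle. Of 11 tested erythroid genes 0 were lower and 0 higher, with a median of -0.07. Without TP-3654 replicate 1, 2 erythroid genes were lower, with a median of -1.06. Of 3 tested B cell genes 0 were past that level, and 1 was without TP-3654 replicate 1. Of 5 tested plasmacytoid dendritic cell genes 3 were higher, with sums of 269 to 292 CPM with TP-3654 and 227 to 236 CPM with vehicle. With vehicle replicate 1 left out 1 was lower and 2 were higher, and 2 were higher with vehicle replicate 2, TP-3654 replicate 1 or TP-3654 replicate 2 left out.

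Of 10 tested megakaryocyte genes 2 were higher and 1 lower (0 higher with vehicle replicate 2 left out, and 3 lower with TP-3654 replicate 1 left out). Most stem cell genes ran the other way from the granule genes. At the unadjusted level 7 of 15 were higher and 0 lower, against 10.2% and 6.84% of all tested genes. The sums were 952 to 1118 CPM with TP-3654 and 745 to 882 CPM with vehicle. Of the 15 genes, 4 had a log2 fold change below 0. Groups did not overlap for 9 that were higher and 1 that was lower, against 14.3% and 11.6% of all tested genes. With 1 library left out 6 to 8 were higher, and with vehicle replicate 1 left out 1 was lower. Meis1, a homeobox gene of stem cells, stood at 187, 188 and 198 CPM with TP-3654 and at 118, 110 and 143 CPM with vehicle (log2 fold change 0.63, SE 0.12, edgeR adjusted p = 0.0792). Its TP-3654 libraries were close together, whereas those of Mpo spanned 3.30-fold.

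**Figure D5:**
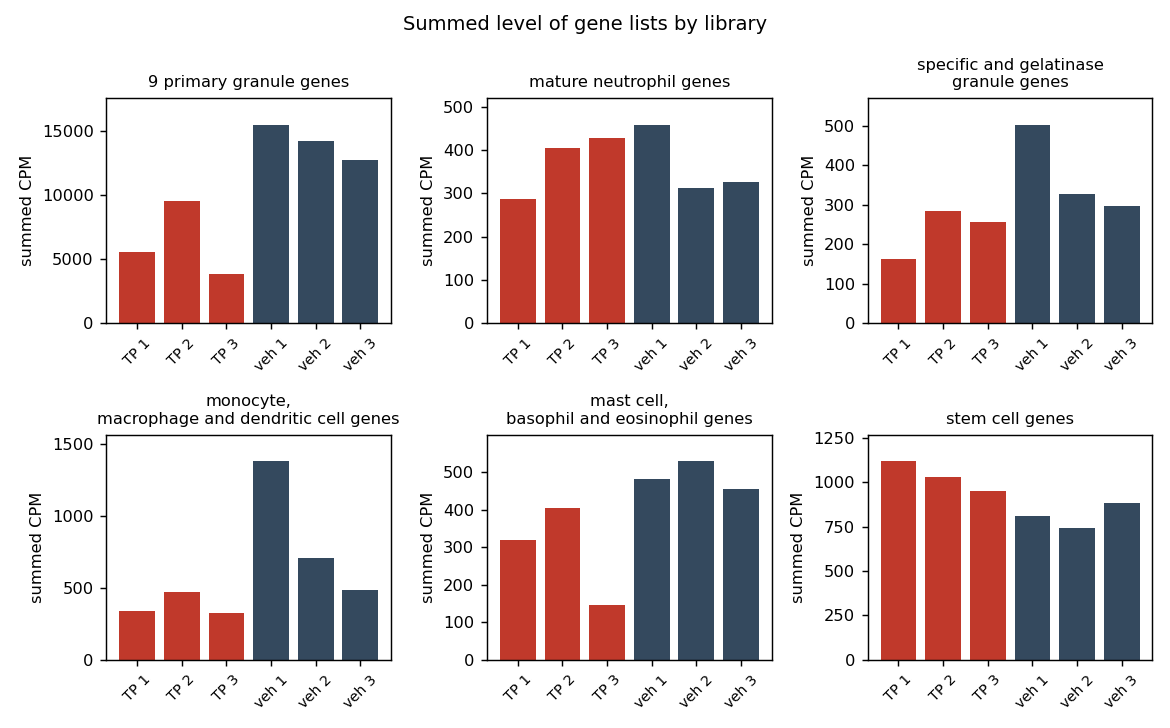
Summed CPM (linear axes from 0) of the 9 primary granule genes and of 5 other gene lists in each library, TP-3654 replicates 1 to 3 (red) left of vehicle replicates 1 to 3 (blue). The granule sum is 3828 to 9561 CPM with TP-3654 and 12745 to 15538 CPM with vehicle, the mature neutrophil sums overlap, and the monocyte sum reaches 1380 CPM in vehicle replicate 1.

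Among genes ranked by level per length, the granule genes held high places in both groups. In vehicle libraries 5 of the 9, Mpo (2186 RPKM), Ctsg (1049 RPKM), Plac8 (1015 RPKM), Prtn3 (957 RPKM) and Elane (844 RPKM), were within the first 26 of 12572 genes. In TP-3654 libraries Mpo was at rank 20, Plac8 at 34, Prtn3 at 57, Ctsg at 60 and Elane at 120. Mpo thus remained the first of the 9 in both groups. Plac8, at 616 RPKM with TP-3654, stood above Prtn3 (433 RPKM) and Ctsg (424 RPKM) there, and in vehicle it stood below Ctsg. The ranks of Ms4a3 were 760 with TP-3654 and 223 with vehicle, the widest shift of the 9.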

How the data were processed

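Counts per gene came from the authors' deposited table, which the submitters left without normalization: 6 libraries, whole numbers, rows by Entrez gene. Per the submitters' processing notes, reads were processed with HISAT2 2.1.0, SAMtools 1.9.0 and DESeq2 on GRCm38 (mm10). The sources used here do not give the counter, the annotation or the use of strand, so antisense and overlapping genes cannot be told apart. The authors' deposited comparison table gives log2 fold changes, p-values, a Wald score and the mean signal (normalized counts) per gene. Per the labels' protocols, cells were lineage-depleted and sorted, and libraries made from poly(A) RNA.

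Of 15845 genes, 15839 received a symbol. edgeR 4.0.16 (R 4.3.3) was run on the counts of all 6 libraries with TMM factors, filterByExpr and a robust quasi-likelihood F test, and p-values were Benjamini-Hochberg adjusted over 13149 genes; the filter removed 2696. The SE of a log2 fold change was taken as its size divided by the root of F. Single values were tested by exact two-sided permutation over 20 arrangements. Levels per length used exon lengths of a GENCODE annotation of GRCm38, and coordinates and promoters are RefSeq's for GRCm38.p6. Sequence shared with other loci was measured over 31-base stretches. A count of 3 (0.116 to 0.153 CPM) marks what this depth could detect. Alternatives were other scalings and filters, DESeq2 1.42.0, limma-voom (limma 3.58.1), a replicate block and leaving out each library. On simulated counts for 13149 genes, 83 of 100 genes changed 2-fold and 100 of 100 changed 4-fold were recovered, and 16 of 12949 unchanged genes were called. The changed genes were drawn only from genes above a minimum level. Each gene was simulated on its own, with no deviation shared by the genes of a library. These shares are therefore not the power of the fit on the real libraries.

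The 9 genes and the 21 gene lists were chosen with earlier results of these data known. Named genes are the 9, up to 4 per list by smallest p, all tested transcription factors, peroxidase paralogs and sort markers, Cfd, Prss57 and the 8 genes of closest pattern. A marker at or near 0 could also be named. Ctsc, Ap3b1, Ltf, S100a8, Csf3r, Mcpt8 and Plppr3 were named after their values were seen.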

Additional observations from a re-analysis of the deposited data

How the results depend on the processing

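All 153 recomputed log2 fold changes of the 9 genes (17 alternatives each) stayed below 0, and 6 of them were called at the false discovery rate of 0.05. The number of the 9 genes called was 0 in the edgeR fit on 6 libraries, 3 with DESeq2 and 0 to 3 with 1 library left out. The number at an unadjusted p under 0.05 was 6, with 5 to 8 under the other settings and 3 to 8 with 1 library left out, 3 without vehicle replicate 1 or TP-3654 replicate 1. The median of the 9 was -1.14, with -1.66 to -0.83 when 1 library was left out. The number of all genes called was 0, and 5 with no low-count filter, 644 with DESeq2, 147 with limma-voom and sample weights, and 0 to 31 with 1 library left out (31 without TP-3654 replicate 3, 18 without TP-3654 replicate 2, 7 without TP-3654 replicate 1). Why the tools differ was not tested. With the TMM factors computed without the 9 genes, an alternative chosen after seeing the data, the median was -1.14.

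The libraries carry replicate numbers in both groups. Same-numbered libraries did not deviate together (correlations 0.0859, -0.0654 and -0.000338). With 3 libraries a group, these correlations cannot show whether the numbers pair the libraries. With the replicate number as a block edgeR called 3 genes and 0 of the 9, with a median of -1.29 and 7 of the 9 at an unadjusted p under 0.05.

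With 3 libraries a group, genes with a wide spread such as Elane cannot be placed closely. A p that misses the threshold does not show equal levels. Between 7.48% and 12.1% of the transcript stretches of Mpo, Prtn3 and Serpinb1a are shared with other loci.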
